A study of Homo sapiens with 6 samples.

Results

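The actin and tubulin cytoskeleton genes are a list of 59 gene symbols that covers the cytoplasmic actins, the proteins that bind monomeric or filamentous actin, the tubulins and the proteins that bind or fold them. The members were chosen by name from textbook roles, with earlier results of these libraries known, and the notes that accompany the list already single out ACTB, GSN and TUBB3. Their differences between quisinostat and DMSO are therefore given as a description. By name, 57 of the 59 were found among 9597 gene names in the deposited table, at 55 of 10066 assembled loci, and TPM2 and VIL1 were not analysed here. RNA came from 3 human bladder cancer cell lines, RT4 and RT112 with an FGFR3-TACC3 fusion and SW780 with the fusion that the labels spell FGFR3-BAIBP2L1. Cells were exposed for 2 days to DMSO or to quisinostat, an inhibitor of histone deacetylases, at 50 nM in RT4, 10 nM in RT112 and 25 nM in SW780 cells. RT4 cells were grown in McCoy's 5A medium and RT112 and SW780 cells in DMEM, so line, dose and partly medium change together and cannot be told apart. Each line and treatment is 1 library, 6 in all, and no difference within a line has a replicate check.

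Cells build actin filaments from a pool of monomers. Profilin and beta-thymosin hold the monomers, the Arp2/3 complex starts branches, cofilin and gelsolin cut filaments, capping proteins close their ends, and tropomyosins, alpha-actinins, filamin and non-muscle myosin II turn them into contractile or crosslinked arrays. Microtubules are polymers of alpha- and beta-tubulin dimers that start from gamma-tubulin, are held by microtubule-associated proteins and are taken apart with the help of stathmin. In urothelial cells, as in other epithelia, these systems shape cell junctions and the cell cortex. Many actin genes are transcribed by serum response factor (SRF) with its cofactors of the MRTF family, which sense the pool of free actin monomers.

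Values are FPKM, which divide the fragments of a locus by its length and by the library's total, so they are relative shares of a library, and fewer cells making a transcript cannot be told apart from less of it in each cell. The depth behind each value is unknown. Summed over the table the FPKM were between 237363 and 263856 per library, with medians between 6.59 and 7.39. The members together held 2.24% of the summed FPKM in RT4 DMSO, 2.23% in RT112 DMSO and 2.26% in SW780 DMSO libraries, and 2.33%, 2.96% and 2.65% with quisinostat. Of 10 epithelial markers, all were found by name and 9 were above 1 FPKM in every library. The other is the shared locus of KRT5 and KRT6A, which was between 0.00976 and 0.447 FPKM in RT4 and SW780 cells and at 9.63 and 66.2 in RT112 cells. The summed FPKM of these markers went from 1682 to 878 in RT4, from 1004 to 1502 in RT112 and from 1524 to 980 in SW780 cells. Of 12 markers of smooth muscle and fibroblasts 4 were found. In 1 label of the SW780 quisinostat library the line is written SW781.

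Some members cannot be read apart. TUBA1A and TUBA1B share 1 assembled locus and so do ARPC1A and ARPC1B, and TAGLN, MYL6, ARPC3 and TUBB3 share theirs with SIDT2, MYL6B, ANAPC7 and TCF25, so that each such value covers all genes named there. Among the transcripts of GENCODE 29, 60.3% of the 50-base words of TUBB2A and 47.3% of those of TUBB2B also occur in another member, and so do 56.6% for TUBA1B, 40.9% for TUBA1A and 25.1% for TUBA1C. For ACTB and ACTG1 these shares were 0.534% and 0.453%, although GENCODE 29 also lists 10 pseudogenes named after ACTB and 20 after ACTG1. How reads were divided among such copies is not given in the sources used here.

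The promoters of 2 sets of members are shown first, since the values below refer back to them. The first set holds the members with a CArG box, chosen by that motif and not by their values. RefSeq promoters of GRCh38.p14 were matched by symbol for 53 of the 59 members, in 94 entries because some genes have several starts. ARPC1B, ACTB, PFN2, TAGLN, MYL9 and VIL1 had no entry. Within the 250 bases before the start, the CArG box, the element bound by SRF, was found in 4 of the 53 members, ACTG1, FLNA, TPM4 and ACTN1 (7.55%), and in 1.44% of the 27305 genes with a promoter. It begins 94 bases before the start in both ACTG1 and FLNA, 173 bases before 1 of the 3 starts of TPM4 and 171 bases before 1 of the 4 starts of ACTN1. The 180 bases before these starts are printed 5′ to 3′ in gene sense, with the CArG box in capitals. In FLNA the letters CCAAT lie within the CArG box.
ACTG1, chr17:81512800-81512979, minus strand: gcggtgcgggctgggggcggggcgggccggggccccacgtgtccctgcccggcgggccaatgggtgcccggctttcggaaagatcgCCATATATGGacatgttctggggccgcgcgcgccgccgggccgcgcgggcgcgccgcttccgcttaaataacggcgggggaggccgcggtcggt
FLNA, chrX:154374635-154374814, minus strand: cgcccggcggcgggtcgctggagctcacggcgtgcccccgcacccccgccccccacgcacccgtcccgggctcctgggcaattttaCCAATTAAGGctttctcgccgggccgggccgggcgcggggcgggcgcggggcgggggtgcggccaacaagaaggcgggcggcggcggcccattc
TPM4, chr19:16067358-16067537, plus strand: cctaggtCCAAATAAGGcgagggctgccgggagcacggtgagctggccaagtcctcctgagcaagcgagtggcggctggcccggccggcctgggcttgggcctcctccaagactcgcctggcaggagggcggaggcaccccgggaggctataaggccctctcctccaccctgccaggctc
ACTN1, chr14:68977567-68977746, minus strand: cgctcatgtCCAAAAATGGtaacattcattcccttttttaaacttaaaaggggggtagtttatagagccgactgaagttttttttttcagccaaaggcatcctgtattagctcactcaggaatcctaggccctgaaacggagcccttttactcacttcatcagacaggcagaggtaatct

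The GC box, GGGCGG on either strand, was found in 49 of 53 members (92.5%) and in 46.2% of all genes with a promoter. CCAAT on either strand was found in 58.5% of members and 37% of all genes, and TATAAA, searched on the gene strand, in 5.66% and 8.38%. Also printed, with the GC boxes in capitals, are the promoters of 4 members that were higher with quisinostat in every line, chosen after their values were seen to set them beside the CArG group. None of the 4 holds a CArG box in its 250 bases, and TMSB10 holds 5 GC boxes, TUBA4A 4, MAP1B 3 at the start shown and TMSB15A 2, where neighbouring boxes can overlap. TPM4, which was also higher in every line, does hold a CArG box and is printed above. Only 4 of the 53 members hold that motif, so its absence from 4 chosen genes does not set them apart. A match of letters is a description and not a binding site.
TMSB15A, chrX:102516740-102516919, minus strand: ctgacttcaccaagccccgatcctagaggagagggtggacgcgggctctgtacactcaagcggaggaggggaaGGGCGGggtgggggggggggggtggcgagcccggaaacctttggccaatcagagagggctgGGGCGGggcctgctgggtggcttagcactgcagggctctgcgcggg
TMSB10, chr2:84905476-84905655, plus strand: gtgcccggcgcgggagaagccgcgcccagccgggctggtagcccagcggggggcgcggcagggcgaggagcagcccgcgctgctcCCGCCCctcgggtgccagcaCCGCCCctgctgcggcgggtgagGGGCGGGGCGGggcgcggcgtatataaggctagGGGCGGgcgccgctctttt
TUBA4A, chr2:219253919-219254098, minus strand: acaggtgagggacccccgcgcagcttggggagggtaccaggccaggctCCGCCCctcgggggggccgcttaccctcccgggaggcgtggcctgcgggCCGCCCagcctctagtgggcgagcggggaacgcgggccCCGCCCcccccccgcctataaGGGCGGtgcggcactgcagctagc
MAP1B, chr5:72107295-72107474, plus strand: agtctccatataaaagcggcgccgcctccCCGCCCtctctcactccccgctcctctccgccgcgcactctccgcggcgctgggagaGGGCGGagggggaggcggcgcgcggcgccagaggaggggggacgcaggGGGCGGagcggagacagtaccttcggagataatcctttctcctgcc

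The response of a gene is the log2 ratio of its FPKM with quisinostat over DMSO in the same line, taken over the 9112 loci above 0 in all 6 libraries. Of the 55 member loci 53 had a ratio, and MSN and TUBB6, each listed at 0 in at least 1 library, had none. A limit of 0.3 on this scale marks a gene as higher, and -0.3 as lower. In RT4 cells 16 of 53 members were higher, beside 40.3% of all loci, and 15 were lower, beside 33.5%. In RT112 cells 30 were higher, beside 36.0%, and only 2, CAPZA1 and MAP7, were lower, beside 25.2%. In SW780 cells 22 were higher, beside 32.8%, and 6 were lower, beside 28.2%. The members of RT112 cells thus stood mostly above 0, with a median log2 ratio of 0.39 against 0.06 over all loci, while the medians were -0.01 in RT4 (0.08 over all loci) and 0.10 in SW780 cells (0.04). Higher in all 3 lines were 9 members, 17.0% beside 11.4% of all loci, and none was lower in all 3, beside 4.99%. Within 0.3 of 0 in every line were 10 members, 18.9% beside 7.12% of all loci.

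**Figure D1:**
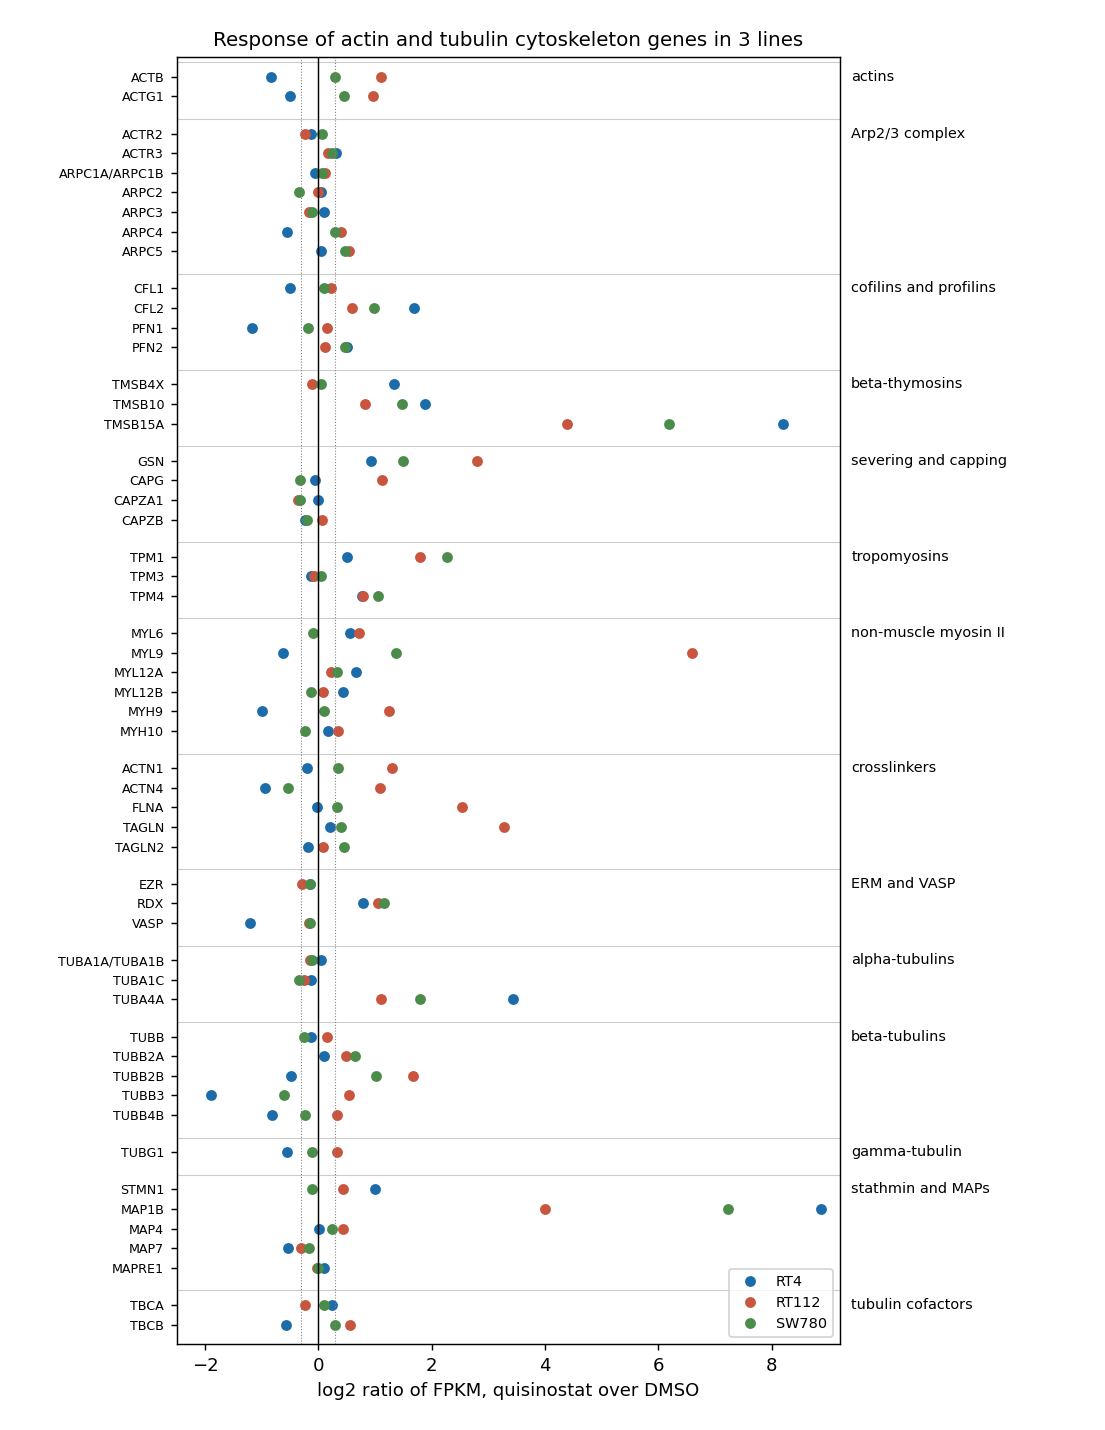
Log2 ratio of FPKM, quisinostat over DMSO, for the 53 member loci above 0 in all libraries, grouped by role. Each point is 1 pair of libraries, coloured by line, and the dotted lines stand at -0.3 and 0.3. TMSB15A and MAP1B lie farthest to the right in RT4 and SW780 cells, MYL9 does in RT112 cells, and ACTB, ACTG1 and MYH9 are left of 0 in RT4 and right of 0 in RT112 cells.

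The 9 members higher in every line were TMSB15A, TMSB10, MAP1B, TUBA4A, GSN, TPM1, TPM4, RDX and CFL2. They come from 7 of the 14 roles. With RT4 cells left out, 19 of 53 members (35.8%) were higher in both other lines, beside 15.9% of all loci. Used as replicates in limma on log2(FPKM + 1), the lines gave 9 members higher at an unadjusted p under 0.05, beside 9.68% of 9430 loci, and 0 lower, beside 4.16%. These were the same 9 genes, but limma used the same 3 pairs of libraries that chose them and adds no independent support. No locus passed an adjusted p of 0.05 (0%), and the lowest adjusted p of a member was 0.161, for TMSB15A, whose limma log2 fold change was 3.28 with a standard error of 0.31 and which was higher in 3 of 3 lines (Benjamini-Hochberg over 9430 loci). Leaving out loci under 1 FPKM in any library left 48 members, of which 6 were higher in all lines, beside 7.82% of all such loci.

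**Figure D2:**
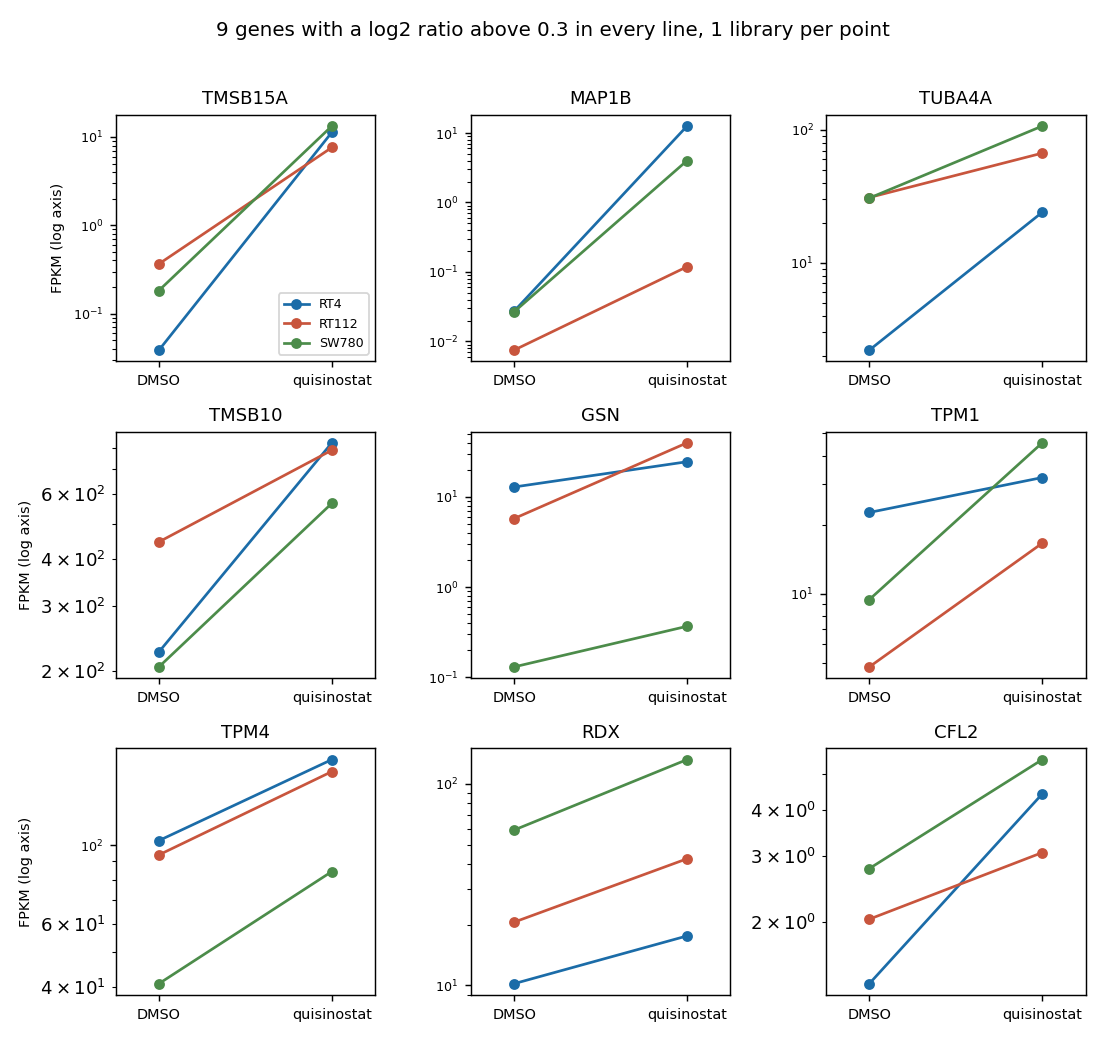
FPKM on log axes in DMSO and quisinostat libraries for the 9 genes with a log2 ratio above 0.3 in every line, where a line joins the 2 libraries of a cell line. TMSB15A and MAP1B start below 0.4 FPKM in all lines, TMSB10 starts above 200, and GSN in SW780 cells stays below 0.4.

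The beta-thymosins, small proteins that bind actin monomers and keep them from polymerizing, held 1 of the pair of members with the highest ratios in RT4 and SW780 cells. TMSB15A (chromosome X of GRCh38, 102513676 to 102516784, minus strand, GENCODE 29) was near 0 with DMSO, with 0.0387 FPKM in RT4 cells, 0.366 in RT112 cells and 0.183 in SW780 cells. With quisinostat it stood at 11.3, 7.61 and 13.3 FPKM, log2 ratios of 8.19, 4.38 and 6.18. All 3 quisinostat libraries were above all 3 DMSO libraries. Because the starting values are so low, these ratios depend on them, and with 1 added to each FPKM they were 3.57, 2.66 and 3.60.

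TMSB10, the second thymosin, is among the most abundant members. It went from 225 to 826 FPKM in RT4, from 446 to 789 in RT112 and from 205 to 567 in SW780 cells, with log2 ratios of 1.88, 0.82 and 1.47. Here too every quisinostat library lay above every DMSO library. TMSB4X, the main thymosin of most tissues, did not follow this pattern. It went from 95.6 to 240 FPKM in RT4 cells, and stayed at 483 and 448 in RT112 and at 438 and 450 in SW780 cells. The summed thymosin FPKM went from 321 to 1077 in RT4, from 930 to 1245 in RT112 and from 642 to 1030 in SW780 cells. TMSB10 made up 70.2% of this sum with DMSO and 76.7% with quisinostat in RT4 cells, 48% and 63.4% in RT112, and 31.8% and 55.1% in SW780 cells.

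The summed FPKM of the actins, whose monomers thymosins bind, was lower with quisinostat in RT4 cells, where the thymosin sum was higher, and both sums were higher in the other two lines. ACTB, beta-actin (chromosome 7, 5527147 to 5563784, minus strand), went from 574 to 323 FPKM in RT4, from 424 to 910 in RT112 and from 469 to 578 in SW780 cells. Its log2 ratios were -0.83, 1.10 and 0.30, and after the trend with GC content was removed they were -0.46, 0.82 and 0.38. ACTG1, gamma-actin (chromosome 17, 81509971 to 81523847, minus strand), went from 852 to 603, from 437 to 858 and from 409 to 558 FPKM in the same order. Its log2 ratios of -0.50, 0.97 and 0.45 had the same signs as those of ACTB, and after the removal of the GC trend the RT4 value was 0.04. With DMSO both actins were most abundant in RT4 cells, and with quisinostat both were most abundant in RT112 cells. The summed actin FPKM was 1426 and 926 in RT4, 861 and 1767 in RT112, and 878 and 1135 in SW780 cells, while the share of ACTB in it stayed between 34.9% and 53.4%. The log2 ratios of the sums were -0.62, 1.04 and 0.37 for actins and 1.75, 0.42 and 0.68 for thymosins. Of the 10 epithelial markers 6 were lower and 2 higher in RT4 cells, beside 33.5% and 40.3% of all loci. In RT112 cells 5 were higher and 2 lower, beside 36.0% and 25.2%. In SW780 cells 6 were lower and 3 higher, beside 28.2% and 32.8%. With the GC trend removed 7 were lower and 1 higher in RT4 cells, and 6 higher and 2 lower in RT112 cells. In SW780 cells 5 were then lower and 1 higher. Of the 8407 loci with a GC value 33.4% were then lower and 35.6% higher in RT4 cells, and the shares in RT112 and SW780 cells were not counted. The log2 ratios of KRT19 went from -1.81 to -0.85 in RT4 and from 0.82 to 0.10 in RT112 cells. The summed FPKM of the markers, which carries no GC correction, went in the direction of the actin sum in RT4 and RT112 but not in SW780 cells. The part of the markers and of GC content in this was not tested.

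Of the profilins, which bind monomers and feed them to growing ends, PFN1 was lower in RT4 cells and PFN2 higher in RT4 and SW780 cells. PFN1 went from 305 to 136 FPKM in RT4, from 112 to 125 in RT112 and from 278 to 246 in SW780 cells. Its log2 ratios were -1.17, 0.15 and -0.18. With the GC trend removed they were -0.56, -0.30 and -0.01, of which the RT112 value lay just past the limit. PFN2 went from 55.6 to 78.8, from 91.7 to 99 and from 65.8 to 91.2. The RT4 log2 ratio of PFN2 was 0.50, and 0.09 with the GC trend removed, so this call rests on the plain ratio. The share of PFN2 in the summed profilin FPKM was 15.4% with DMSO and 36.7% with quisinostat in RT4 cells, 44.9% and 44.3% in RT112, and 19.2% and 27% in SW780 cells.

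Cofilins sever filaments and return monomers to the pool. CFL1, the isoform of non-muscle cells, made up 97% to 99.3% of cofilin FPKM. Its log2 ratios were -0.50, 0.22 and 0.10, of which the RT4 value was 0.03 after the GC trend was removed. CFL2, the muscle isoform, went from 1.36 to 4.42 FPKM in RT4, from 2.03 to 3.07 in RT112 and from 2.78 to 5.47 in SW780 cells, log2 ratios of 1.69, 0.60 and 0.98. It was higher with quisinostat in each line but remained a minor form, with 0.679% to 3.04% of cofilin FPKM.

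GSN, gelsolin (chromosome 9, 121207794 to 121332843, plus strand), cuts filaments in the presence of calcium and is a textbook gene induced by histone deacetylase inhibitors. It went from 12.9 to 24.6 FPKM in RT4, from 5.76 to 39.9 in RT112 and from 0.13 to 0.367 in SW780 cells. The log2 ratios were 0.93, 2.79 and 1.50. In SW780 cells the transcript thus stayed close to 0 under both treatments, with a log2 ratio of 0.28 once 1 was added to each value, and the DMSO libraries of RT4 and SW780 cells differed 99.7-fold. CAPG, a capping protein of the gelsolin family, differed in direction between lines, with 10.5 and 22.9 FPKM in RT112 cells (log2 ratio 1.12) and 24 and 19.2 in SW780 cells (-0.32). The subunits of the general capping protein, CAPZA1 and CAPZB, had log2 ratios between -0.37 and 0.07 in all lines, and CAPZA1 was at -0.40 in RT4 cells with the GC trend removed.

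The 7 loci of the Arp2/3 complex, which starts new branches on existing filaments, had plain log2 ratios between -0.56 and 0.53 over all lines, with medians of 0.04 (RT4), 0.12 (RT112) and 0.07 (SW780). ARPC5 had the highest mean ratio of the group and went from 8.35 to 8.56 FPKM in RT4, from 18.8 to 27.1 in RT112 and from 16.3 to 22.4 in SW780 cells. Its log2 ratios were 0.04, 0.53 and 0.46. ACTR2, ARPC3 and the shared locus of ARPC1A and ARPC1B stayed within 0.3 of 0 in each line. With the GC trend removed 4 of the 7 loci were below -0.3 in RT4 cells, ACTR2 at -0.67, ARPC5 at -0.45, ARPC4 at -0.39 and ACTR3 at -0.32, the last from a plain ratio of 0.31. ARPC3 and the locus of ARPC1A and ARPC1B then still lay within 0.3 of 0 in each line.

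Tropomyosins wrap along actin filaments and gate the access of myosin and cofilin. TPM1 went from 22.6 to 32.1 FPKM in RT4, from 4.79 to 16.6 in RT112 and from 9.42 to 45.5 in SW780 cells, log2 ratios of 0.51, 1.80 and 2.27. With the GC trend removed the RT4 ratio of TPM1 was 0.25. TPM4, which has a CArG box at 1 of its starts, went from 103 to 174, from 93.9 to 161 and from 40.8 to 84.3 FPKM, log2 ratios of 0.76, 0.78 and 1.05. The 3 ratios of TPM4 lay close together although its DMSO levels differed 2.52-fold. TPM3, of similar abundance, was between 65.2 and 72.3 FPKM in all 6 libraries, and its RT4 log2 ratio of -0.13 was -0.40 with the GC trend removed. The share of TPM3 in tropomyosin FPKM was lower with quisinostat in each line, at 36.2% and 24.1% in RT4, 42.1% and 27.7% in RT112, and 58.2% and 35.8% in SW780 cells.

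**Figure D3:**
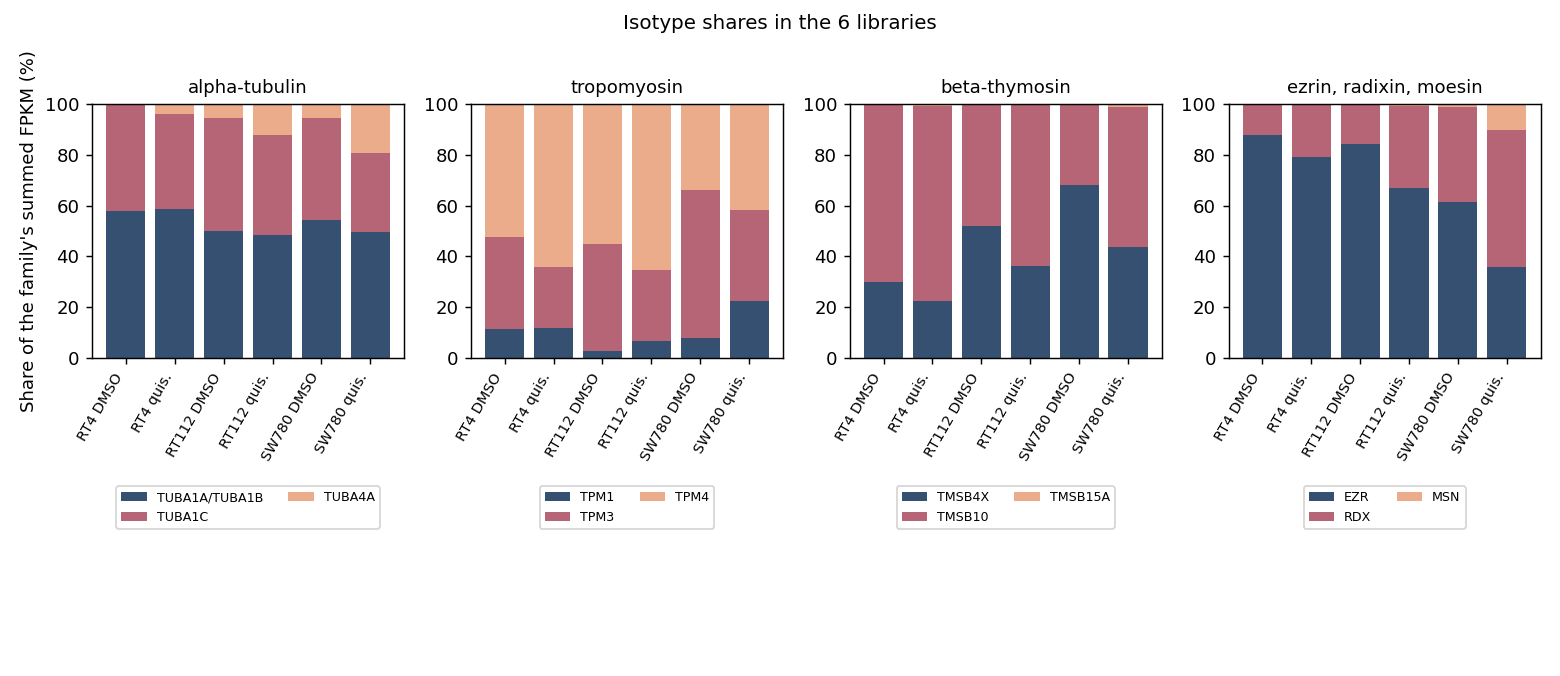
Share of each isotype, in percent, in the summed FPKM of its family in the 6 libraries, for alpha-tubulins, tropomyosins, beta-thymosins and the ezrin, radixin and moesin family. With quisinostat (quis.) the shares of TUBA4A, TPM4, TMSB10 and RDX were larger in every line, and MSN reached 10.4% in SW780 cells with quisinostat.

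Non-muscle myosin II pulls on actin filaments. MYL9, a regulatory light chain that is abundant in smooth muscle, had the largest difference of any member in RT112 cells. Its FPKM went from 0.217 to 21.1 in RT112, from 1.31 to 3.36 in SW780 and from 0.505 to 0.328 in RT4 cells, log2 ratios of 6.60, 1.36 and -0.62. The RT4 ratio was 0.20 after the GC trend was removed. MYL12A and MYL12B, the general regulatory light chains, held between 77.9% and 85.9% of light chain FPKM together, with log2 ratios between -0.14 and 0.66. The heavy chain MYH9 went from 120 to 60.2 FPKM in RT4, from 61.4 to 146 in RT112 and from 45.5 to 48.3 in SW780 cells, and the minor heavy chain MYH10 stayed between 3.64 and 9.81.

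Of the 5 crosslinkers, 4 were higher in RT112 and 4 in SW780 cells, while in RT4 cells none was higher and ACTN4 was lower. FLNA, filamin A (chromosome X, 154348524 to 154374638, minus strand), joins filaments into networks. It went from 16.9 to 97.5 FPKM in RT112 cells (log2 ratio 2.53), from 42.3 to 41.6 in RT4 (-0.02) and from 39.8 to 50.2 in SW780 cells (0.33). TAGLN, transgelin, an actin binder of smooth muscle whose locus is shared with SIDT2, went from 1.05 to 10.1 FPKM in RT112, from 1.11 to 1.29 in RT4 and from 2.7 to 3.54 in SW780 cells, log2 ratios of 3.28, 0.21 and 0.39. With the GC trend removed the RT4 values were 0.99 for FLNA and 0.68 for TAGLN, both above the limit. The alpha-actinins also stood highest in RT112 cells, with log2 ratios of 1.30 for ACTN1 and 1.08 for ACTN4, against -0.21 and -0.94 in RT4 cells and 0.35 and -0.53 in SW780 cells. TAGLN2, the abundant transgelin of epithelial cells, was between 151 and 456 FPKM with log2 ratios of -0.19, 0.08 and 0.45. The 4 genes with a CArG box, ACTG1, FLNA, TPM4 and ACTN1, were all higher in RT112 and SW780 cells. So were 19 of the 53 members (35.8%), most of them without a CArG box, and 15.9% of all loci. In RT4 cells TPM4 was higher by the plain ratio, and TPM4 and FLNA (0.64 and 0.99) were with the GC trend removed.

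Because MYL9 and TAGLN are also markers of smooth muscle, the levels of that lineage stand beside them. Of its 12 fixed markers, ACTA2, ACTG2, DES, MYH11, CNN1, COL1A2, PDGFRB and VIM were not found by name. SMTN was at most 0.423 FPKM and listed at 0 in RT112 DMSO and SW780 quisinostat libraries. COL1A1, a collagen chain of fibroblasts, was higher with quisinostat in each line, from 0.0342 to 0.474 FPKM in RT4, from 0.173 to 1.45 in RT112 and from 0.0558 to 0.504 in SW780 cells, log2 ratios of 3.79, 3.06 and 3.18. COL3A1 went from 1.13 to 6.19, from 0.0896 to 0.334 and from 2.74 to 1.31 FPKM. In RT112 cells, where MYL9 and TAGLN differed most, SMTN (0 to 0.26 FPKM), COL1A1 and COL3A1 were thus higher as well. The same markers were also higher in RT4 cells, where MYL9 (-0.62) and TAGLN (0.21) were not past 0.3. There SMTN went from 0.0532 to 0.423 FPKM, and the log2 ratio of COL3A1 was 2.46, against 1.90 in RT112 cells. LUM was listed at 0 in RT4 DMSO and made up most of the sum in RT112 cells, with 135 FPKM for DMSO and 133 for quisinostat. The summed FPKM of the list was 1.21 and 10.7 in RT4, 135 and 135 in RT112, and 11 and 16 in SW780 cells, and the part of these markers in the values of MYL9 and TAGLN was not tested.

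Ezrin, radixin and moesin tie actin to the plasma membrane. RDX, radixin, went from 10.2 to 17.6 FPKM in RT4, from 20.6 to 42.5 in RT112 and from 59 to 132 in SW780 cells, log2 ratios of 0.78, 1.05 and 1.16. These ratios are close to each other although the DMSO levels differ 5.78-fold, and with the GC trend removed the RT4 ratio was 0.27. EZR, the ezrin of epithelial brush borders, had ratios between -0.29 and -0.15, and its RT112 ratio was -0.33 with the GC trend removed. Its share of the family was lower with quisinostat in each line, at 87.9% and 79.2% in RT4, 84.1% and 67% in RT112, and 61.3% and 35.6% in SW780 cells. MSN, moesin, was listed at 0.00231 and 0 FPKM in RT4 cells, at 0.0445 and 1.31 in RT112 cells and at 2.17 and 25.4 in SW780 cells. VASP, which helps filament ends to grow, went from 69.6 to 30.1 FPKM in RT4 cells (log2 ratio -1.21) and had ratios of -0.17 and -0.15 in RT112 and SW780 cells.

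Whether a 0 in this table means that a gene is silent was not tested. DSTN, which encodes actin-depolymerizing factor, a protein of most cells, was between 46.2 and 75.1 FPKM in RT4 and RT112 cells and is listed at 0 in SW780 DMSO and at 2.82e-06 in SW780 quisinostat. DSTN is not a member and was chosen here after its values were seen.

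Among alpha-tubulins the locus of TUBA1A and TUBA1B was steady, TUBA1C was lower in SW780 cells, and the minor form TUBA4A was higher in every line. The shared locus of TUBA1A and TUBA1B was between 262 and 363 FPKM and TUBA1C between 170 and 258, with log2 ratios from -0.35 to 0.04. The lowest was that of TUBA1C in SW780 cells. With the GC trend removed TUBA1C was at -0.37 in SW780 and at -0.31 in RT112 cells. TUBA4A (chromosome 2, 219249711 to 219278170, minus strand) went from 2.2 to 24 FPKM in RT4, from 31 to 66.9 in RT112 and from 30.7 to 107 in SW780 cells. The log2 ratios of this isotype were 3.44, 1.11 and 1.80. With TMSB15A and MAP1B it was 1 of 3 members above 1 in all lines, for which the share of all loci was not counted. Its share of alpha-tubulin FPKM went from 0.361% to 3.88% in RT4, from 5.35% to 12.3% in RT112 and from 5.63% to 19.4% in SW780 cells. The summed alpha-tubulin FPKM differed little between treatments, with log2 ratios of 0.02, -0.09 and 0.02.

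Of the beta-tubulins, TUBB held between 69.1% and 78% of the family in every library, with log2 ratios of -0.13, 0.15 and -0.26. TUBB4B, the second form, went from 256 to 145 FPKM in RT4, from 160 to 201 in RT112 and from 152 to 130 in SW780 cells, and after the GC trend was removed its log2 ratios of -0.82, 0.33 and -0.23 were -0.11, -0.20 and -0.04. TUBB3, the class III form of neurons, cannot be separated from TCF25 here. The locus went from 11.9 to 3.17 FPKM in RT4, from 6.18 to 8.96 in RT112 and from 4.62 to 3.03 in SW780 cells, log2 ratios of -1.90, 0.54 and -0.61, of which the RT112 value was -0.04 with the GC trend removed.

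TUBB2B, which shares much of its sequence with TUBB2A, went from 2.31 to 1.65 FPKM in RT4, from 0.908 to 2.86 in RT112 and from 0.636 to 1.28 in SW780 cells. Its log2 ratios were -0.49, 1.66 and 1.01, and those of TUBB2A were 0.10, 0.49 and 0.64. Both were minor forms in every library, with at most 0.866% of beta-tubulin FPKM each. TUBB6, the class V form, was listed at 0.534 and 3.81 FPKM in RT4 cells and at 0 in the 4 libraries of RT112 and SW780 cells. TUBG1, the gamma-tubulin that starts microtubules, went from 85 to 58.1, from 52.2 to 65.1 and from 56.2 to 52.1 FPKM, log2 ratios of -0.55, 0.32 and -0.11, which were -0.01, -0.08 and 0.03 after the GC trend was removed.

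MAP1B, a microtubule-associated protein of growing axons (chromosome 5, 72107234 to 72209570, plus strand), was near 0 with DMSO. It went from 0.0273 to 12.6 FPKM in RT4, from 0.0267 to 4.01 in SW780 and from 0.0075 to 0.119 in RT112 cells, log2 ratios of 8.86, 7.23 and 3.99. In RT112 cells the quisinostat level was itself below 1 FPKM, and with 1 added to each value the ratios were 3.73, 2.29 and 0.15. STMN1, stathmin, which binds tubulin dimers and favours disassembly, went from 18.6 to 36.9 FPKM in RT4, from 68.9 to 92.6 in RT112 and from 61 to 56.6 in SW780 cells. MAPRE1, a protein of growing microtubule ends, was steady in each line, with log2 ratios of 0.09, -0.03 and -0.01. MAP4, the general MAP of non-neuronal cells, had ratios of 0.01, 0.44 and 0.23, and MAP7, which recruits kinesin to microtubules, had -0.54, -0.31 and -0.16.

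The tubulin folding cofactors come last. TBCB, which takes up alpha-tubulin, went from 17.3 to 11.6 FPKM in RT4, from 15 to 21.9 in RT112 and from 20.8 to 25.4 in SW780 cells, log2 ratios of -0.58, 0.55 and 0.29. It was thus past the limit in opposite directions in RT4 and RT112 cells, and after the GC trend was removed these values were 0.10 and 0.04. TBCA, which takes up beta-tubulin, stayed within 0.3 of 0 in each line, with plain ratios of 0.24, -0.23 and 0.10, but its RT4 value was -0.51 with the GC trend removed.

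Members that differed in opposite directions between lines mostly had GC-rich transcripts. The longest coding transcript in GENCODE 29 gave a GC content for all 53 loci, with a median of 52.8% against 48.2% over 8407 loci. Across the members, Spearman's correlation of log2 ratio and transcript GC stood at -0.55 for RT4, 0.37 for RT112 and -0.13 for SW780 cells, and over all loci it was -0.49, 0.44 and -0.22. These correlations are across genes of the same libraries and carry no p. Of the 26 members above the members' median GC content, 14 were lower in RT4 and 20 higher in RT112 cells, whereas of the 27 others 1 was lower in RT4 and 10 were higher in RT112 cells. The shares of all loci in the same GC ranges were not counted. Since all loci had correlations of the same signs, these counts do not set the members apart. When a lowess curve of log2 ratio on GC content was subtracted in each line, the median log2 ratios of the 26 moved from -0.49 to 0.07 in RT4 and from 0.77 to 0.43 in RT112 cells. The part of GC content in the values of single members was not tested.

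After this correction 9 members, 17.0% beside 11.4% of the 8407 loci, were again higher in all 3 lines, of which 7 were among the 9 before it. TPM1 and RDX dropped out through RT4 cells, and FLNA and TAGLN came in. FLNA then had ratios of 0.99 for RT4, 1.77 for RT112 and 0.63 for SW780 cells, and TAGLN had 0.68, 2.93 and 0.51. Members past the limit in opposite directions in 2 lines numbered 12 before the correction (22.6%, beside 29.3% of all loci) and 7 after it (13.2%, beside 18.1%), and ACTB, ARPC4, MYH9 and ACTN4 were in both sets. In RT4 cells 20 member calls were kept, 10 were lost, 4 were gained as higher (CAPG, FLNA, TAGLN and TUBB2A), 5 as lower (ACTR2, ARPC5, CAPZA1, TPM3 and TBCA), and that of ACTR3 turned. After the correction 16 members were higher in RT4, beside 35.6% of the 8407 loci, and 14 lower, beside 33.4%. In RT112 cells 24 calls were kept and 8 lost, and in SW780 cells 26 and 2. Gained in RT112 cells were 2 as higher (ACTR3 and MYL12A) and 4 as lower (PFN1, EZR, VASP and TUBA1C). CAPZA1 and MAP7, the 2 members lower there by the plain ratio, were both among the lost. In SW780 cells TBCB was gained as higher and MYH10 as lower. Of the 10 members within 0.3 of 0 in every line, 6 still were.

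**Figure D4:**
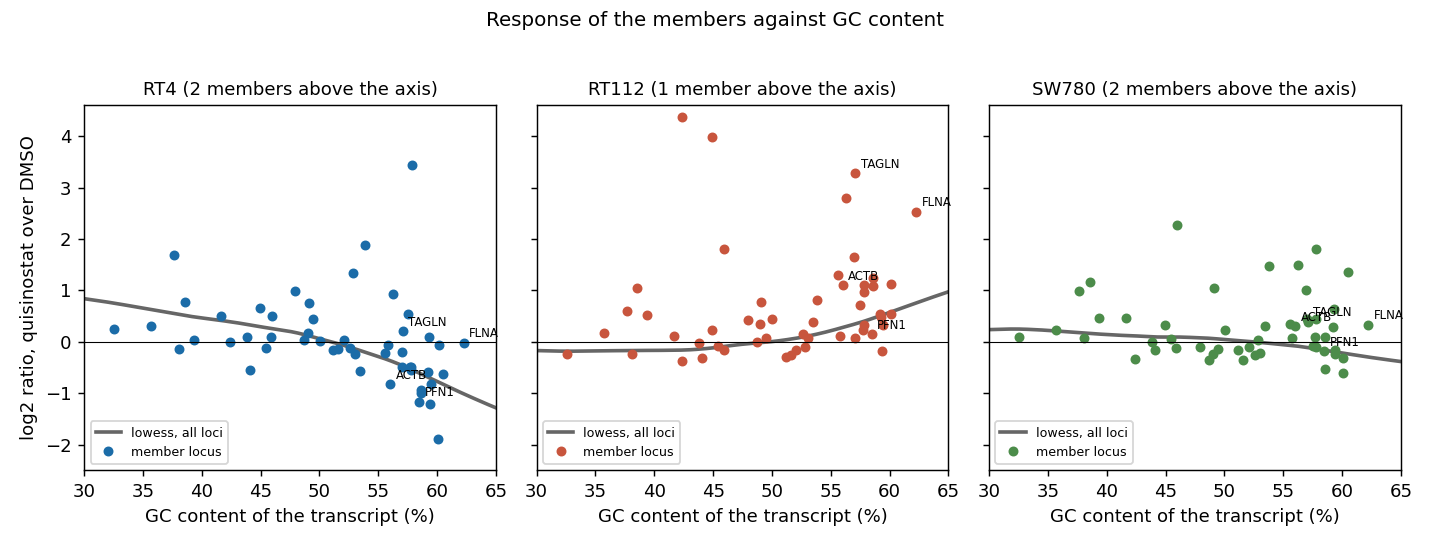
Log2 ratio of each member locus (points) against the GC content of its transcript, with the lowess curve through all loci with a GC value, 1 panel per line. The curve descends with GC content in RT4 cells and climbs in RT112 cells, and FLNA and TAGLN lie above it in all panels.

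The levels with DMSO compare the lines without the drug, and with 1 library per line they compare these libraries. Of 53 members 8 differed at least 4-fold between the highest and the lowest DMSO library, 15.1% beside 18.1% of all loci. These were GSN, TUBA4A, TMSB15A, MYL9, RDX, TMSB4X, TPM1 and CAPG. MSN was not counted because it is at 0 with quisinostat in RT4 cells. Its DMSO values of 0.00231 (RT4), 0.0445 (RT112) and 2.17 FPKM (SW780) differed 943-fold. GSN was lowest in SW780 cells (0.13 FPKM, against 5.76 in RT112 and 12.9 in RT4 cells). RT4 cells had the lowest TUBA4A (2.2 FPKM, 14.1-fold below RT112) and TMSB4X (95.6 FPKM, 5.06-fold below RT112). RT112 cells had the lowest TPM1, 4.71-fold below RT4, and the lowest MYL9, 6.03-fold below SW780. SW780 cells had the highest RDX and CAPG and the only MSN above 1 FPKM with DMSO. TPM3 (1.03-fold), ARPC3 (1.09-fold) and CFL1 (1.14-fold) differed least among those named above.

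ACTB is also the gene that the study used as reference in RT-qPCR, so its level was set beside 17 other genes in common use for that purpose. Over the 6 libraries ACTB spanned 1.49 on the log2 scale, which placed it 11 of 18 when ordered from the narrowest range, with GUSB narrowest at 0.49 and ALAS1 widest at 2.90. The spread of its 3 log2 ratios was 1.93, and only RPL13A (1.98) and TBP (2.67, at most 4.84 FPKM) had a wider one. GAPDH was lower with quisinostat in each line, with log2 ratios of -1.03, -0.45 and -0.95.

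**Figure D5:**
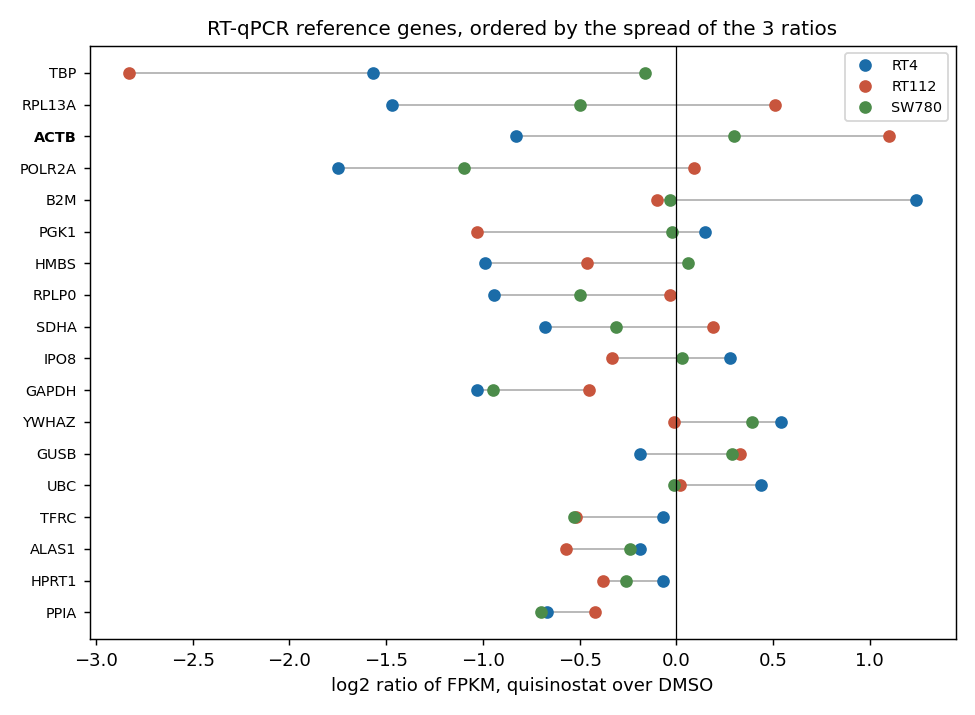
Log2 ratio of FPKM, quisinostat over DMSO, for 18 genes in use as RT-qPCR references, ordered by the spread of their 3 ratios. Points are lines and grey bars join the lowest to the highest ratio of a gene. ACTB (bold) extends from -0.83 in RT4 to 1.10 in RT112 cells, and PPIA, at the bottom, has the narrowest spread, 0.28.

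Dividing by ACTB shifts every other gene by the ratio of ACTB. FGFR3 had plain ratios of -1.71 (RT4), 0.93 (RT112) and -2.00 (SW780), and relative to ACTB they were -0.88, -0.17 and -2.31. In RT112 cells the sign thus depended on the reference, since relative to each of the 17 other genes FGFR3 was above 0, from 0.42 to 3.76. In SW780 cells it did not, since FGFR3 was below 0 relative to all 17, from -2.40 to -0.90. HDGF had ratios of -0.82, -0.52 and -0.94, and relative to ACTB 0.01, -1.62 and -1.24. Relative to the other genes HDGF was below 0 with 11 of 17 for RT4, 14 for RT112 and 15 for SW780 cells. These are calculations on FPKM and not RT-qPCR values, and there is 1 library per point. By RT-qPCR on biological replicates, relative to ACTB, the paper reports FGFR3 mRNA as not lowered in any line and raised in SW780 cells. It reports HDGF mRNA as lowered. The FPKM of FGFR3 in SW780 cells thus went the other way with every reference, and the reason was not tested.

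Genes of the same pathways outside the members were taken from lists with the same limits. Of 49 loci of other actin regulators, 24 were higher and 15 lower in RT4 cells, beside 40.3% and 33.5% of all loci. In RT112 cells 23 were higher and 5 lower, beside 36.0% and 25.2%. In SW780 cells 18 were higher and 11 lower, beside 32.8% and 28.2%. In all 3 lines 10 were higher and none was lower, beside 11.4% and 4.99% of all loci. SCIN, a relative of gelsolin, had log2 ratios of 3.91, 1.61 and 2.18 from DMSO levels of 0.39, 0.133 and 0.106 FPKM. PAK1, a kinase downstream of Rac, went from 10.1 to 20.3 FPKM in RT4, from 0.664 to 2.82 in RT112 and from 2.83 to 6.21 in SW780 cells.

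SRF, MRTF and their textbook targets gave 15 loci with ratios. Of these 14 were higher and none was lower in RT112 cells, beside 36.0% and 25.2% of all loci. In SW780 cells 10 were higher and 1 lower, beside 32.8% and 28.2%. In RT4 cells 6 were higher and 6 lower, beside 40.3% and 33.5%. The median log2 ratio was 1.10 in RT112, 0.60 in SW780 and 0.12 in RT4 cells. After removal of the GC trend 13 of 14 loci were higher in RT112, 11 in SW780 and 6 in RT4 cells, with 2 lower in RT4 cells. Of the 8407 loci 35.6% were then higher and 33.4% lower in RT4 cells, and the shares in RT112 and SW780 cells were not counted. CALD1, caldesmon, which binds actin and myosin, went from 4.01 to 22.9 FPKM in RT4, from 0.039 to 8.21 in RT112 and from 5.14 to 11 in SW780 cells. ANKRD1, a target shared with the YAP pathway, went from 0.0271 to 7.06, from 1.49 to 30.1 and from 1.07 to 6.05. SRF itself, named after its values were seen, went from 13.1 to 10.2 FPKM in RT4, from 10.4 to 20.1 in RT112 and from 6.75 to 9.25 in SW780 cells, log2 ratios of -0.36, 0.96 and 0.45. With the GC trend removed they were 0.51, 0.31 and 0.71, so the RT4 direction of SRF turned.

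Of 29 loci of other microtubule regulators, 13 were higher and 10 lower in RT4 cells, beside 40.3% and 33.5% of all loci. In RT112 cells 13 were higher and 9 lower, beside 36.0% and 25.2%. In SW780 cells 8 were higher and 8 lower, beside 32.8% and 28.2%. In all 3 lines 5 were higher and 2 lower, beside 11.4% and 4.99% of all loci. MAP6, which stabilizes microtubules against cold, had log2 ratios of 4.72, 3.09 and 4.10 from DMSO levels below 0.07 FPKM. VASH1, which removes the terminal tyrosine of alpha-tubulin, went from 0.755 to 1.8 FPKM in RT4, from 0.148 to 0.848 in RT112 and from 0.574 to 1.66 in SW780 cells. The 2 lower in all lines, named after their values were seen, were TUBGCP3 and TUBGCP4, subunits of the ring complex that holds gamma-tubulin. TUBGCP4 went from 9.05 to 5.11, from 8.71 to 4.66 and from 7.58 to 4.48 FPKM, and TUBGCP3 had log2 ratios of -0.76, -0.55 and -0.45.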

How the data were processed

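RNA-seq libraries of 3 bladder cancer lines with DMSO or quisinostat (1 library for each) were analysed. The authors made stranded mRNA libraries, sequenced them on a NovaSeq and used HISAT2, StringTie and Ballgown. The submitters' processing notes add CASAVA 1.8.2, Trimmomatic 0.36, HISAT2 2.2.1, SAMtools 1.15.1, StringTie 2.2.1 and GRCh38. The deposited values are FPKM per assembled locus. The criterion for the rows is not given in the sources used here. FPKM carry no correction for GC content in those sources, and read depth is unknown.

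From these values plain log2 ratios of quisinostat over DMSO were computed for loci above 0 in all 6 libraries. Across lines, limma 3.58.1 in R 4.3.3 was fitted to log2(FPKM + 1) where the mean FPKM was 1 or more, with line as block, the trend option on and p-values adjusted after Benjamini-Hochberg. This scale understates the change of low genes. A quisinostat and a DMSO library are paired because they come from the same line. Where libraries of a line came from separate cultures is not stated, and p-values treat the lines as replicates. GC content came from the longest coding transcript in GENCODE 29, and a lowess curve (span 0.3) was subtracted. Both steps were tested on simulated data. A name at several loci would take the locus with the highest mean FPKM, and no member was.

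The members and lists were chosen with earlier results of these data known. All 6 values are given for ACTB, ACTG1, GSN, TUBB3 and the member of each role with the largest mean log2 ratio in size. Outside the members the rule named TCF25, FGFR3, HDGF, the reference genes, and list genes at or past 1 in one direction in all lines. Alternatives were pseudocounts of 0.1 and 1, filters, scalings, the GC correction, loci with a single name, leaving out a line and other limma settings. Python 3.11.15 with pandas 2.3.3 and statsmodels 0.14.6 was used.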

Additional observations from a re-analysis of the deposited data

Results flagged for a closer look

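The 12 members below lay past 0.3 on the log2 scale in opposite directions in 2 lines, 22.6% of members beside 29.3% of all loci. With 1 library per line and treatment these differences between lines were not tested, and dose changes with line. The value given is the log2 ratio in the higher line minus that in the lower. RT112 was the higher line for all 12 and RT4 the lower for 11. How often the lines stood in this order over all loci was not counted. The difference between RT112 and RT4 cells was 7.22 for MYL9, 2.44 for the locus of TUBB3 and TCF25, 2.24 for MYH9, 2.14 for TUBB2B, 2.02 for ACTN4 and 1.93 for ACTB. It was 1.47 for ACTG1, 1.15 for TUBB4B, 1.13 for TBCB, 0.96 for ARPC4 and 0.87 for TUBG1. For CAPG it was 1.44 between RT112 and SW780 cells. After removal of the GC trend ACTB, ARPC4, MYH9 and ACTN4 still lay past 0.3 in opposite directions, and the part of GC content in the other 8 was not tested.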

How the results depend on the processing

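Adjusted limma calls were 0 under all settings run. At an unadjusted p under 0.05, limma gave 9 members higher and 0 lower. Without the replicate block it gave 4 higher, with the replicate block on GC-corrected values 1 was lower, and over the fits that left out 1 line it gave 6 to 10 higher and 0 to 2 lower. The 9 members higher in all 3 lines became 3 at a limit of 1, and over the counts that left out a line 11 to 19, while those lower in both remaining lines numbered 1 to 2. At the limit of 1, 6 (RT4), 15 (RT112) and 10 (SW780) members were higher and 3, 0 and 0 lower. The shares of all loci past a limit of 1 were not counted, so whether these counts are unusual cannot be told. The 2 members lower in RT112 cells became 1 with a pseudocount of 1, 4 after centring on the median and 4 after the GC correction. The 4 after the GC correction were PFN1, EZR, VASP and TUBA1C, and neither CAPZA1 nor MAP7 was among them. The 8 members at least 4-fold apart with DMSO became 5 with a pseudocount of 1. Among the members named with all values, the GC correction turned the sign of ACTG1 (0.04), MYL9 (0.20) and TBCB (0.10) in RT4 and TUBB3 (-0.04) and TUBG1 (-0.08) in RT112 cells. The 12 members past the limit in opposite directions became 7 after the GC correction, which also turned ACTR3 in RT4 cells from 0.31 to -0.32. A filter of at least 1 FPKM in every library was chosen, like the GC correction of these lists, after seeing the data. It also left fewer loci. Those higher in all lines went from 10 of 49 to 6 of 42 for other actin regulators and from 5 of 15 to 2 of 10 for the SRF list. For other microtubule regulators they went from 5 of 29 to 3 of 24. The share of all loci went from 11.4% to 7.82%. With the filter the SRF list had 3 and 9 of 10 loci higher in RT4 and RT112 cells, in place of 6 and 14 of 15. After the GC correction it had 2 of 14 loci lower in RT4 cells in place of 6 of 15. The 8 of 29 microtubule regulators higher in SW780 cells became 13 of 29 after the GC correction and 5 of 24 at 1 FPKM. The other counts of members higher or lower in a line or in all lines kept within 1.5 times under the settings run. The unknown depth limits values below 1 FPKM most.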
